A study of Mus musculus with 9 samples.

Results

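BV2 is an immortalized line of mouse microglia, and MNPs@SiO2(RITC) are nanoparticles with a cobalt ferrite core and a silica shell that carries the dye rhodamine B isothiocyanate. The comparison described here is that of BV2 cells treated with 100 µg/ml MNPs@SiO2(RITC) for 12 h with non-treated control cells, each with 3 RNA-seq libraries. A further 3 libraries of cells treated at 10 µg/ml for 12 h entered the same fit, and the labels write the doses as 0.01 and 0.1 µg/µl. All 9 libraries are of 1 cell line, no genetic change or second agent is named for any group, and the libraries used here include no cells given silica or cobalt ferrite alone. Genes were taken into the comparison when their mean FPKM (fragments scaled to transcript length and to the number of mapped fragments) over the 9 libraries was at least 1, which held for 11161 of the 40993 genes in the table. The difference is given as the log2 fold change on log2(FPKM + 1), a scale that understates the change of genes with low FPKM, and a gene was called where the Benjamini-Hochberg adjusted p from limma, over all 11161 genes, was below 0.05. The labels do not say whether the 3 libraries of a group came from separate cultures, so the p-values measure the spread between these libraries, which may be technical. In a bulk library, fewer cells that express a gene and less of its RNA in each cell cannot be told apart.

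The depth is not given with FPKM. Steps of 1 fragment between low values put it at about 12.2, 13.7 and 13.25 M (mega) fragments in the control libraries, 13.5, 13.15 and 12.6 M at 10 µg/ml and 15, 12.05 and 13.35 M at 100 µg/ml, and these are approximate. At this depth a gene near 1 FPKM rests on few fragments, and 188 of the genes called below had a mean of at least 10 FPKM.

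A pair of libraries stood apart from the others. In a principal component analysis of all genes tested, high dose replicate 1 lay at -33.1 on the first component, which held 19.3% of the variance, while the other 8 libraries lay between -6.55 and 10.1. Control replicate 2 lay at -29.2 on the second component (17.2% of the variance), and the others between -6.10 and 16.9. In high dose replicate 1, the level of a gene followed the length of its transcript. In the decile of shortest transcripts its median log2(FPKM + 1) was 0.12 above the mean of the 9 libraries, and in that of the longest it was 0.14 below it. The other libraries at 100 µg/ml ran the opposite way, with -0.078 and -0.069 in the shortest and 0.063 and 0.037 in the longest. Smaller gradients ran in both directions in the other groups. The control libraries had 0.065, 0.015 and -0.043 in the shortest and -0.025, 0.0058 and 0.032 in the longest. Those at 10 µg/ml had -0.041, -0.044 and 0.016 in the shortest and 0.035, 0.034 and -0.021 in the longest. For the gene lists of this section, the counts of genes called are therefore also given for the refit without control replicate 2 and for that without high dose replicate 1, in this order (the pair of refits). For the groups added at the end of the text, the genes that kept or lost the call are named instead.

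**Figure D1:**
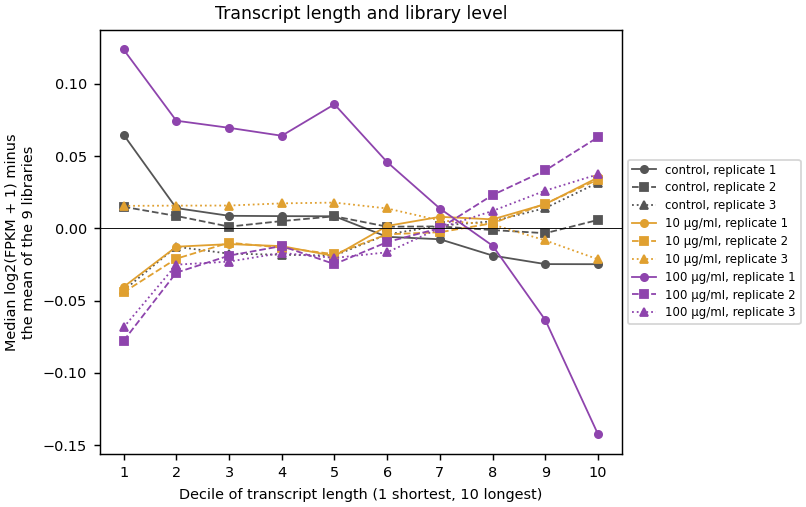
The median deviation of log2(FPKM + 1) from the mean of the 9 libraries is plotted against the decile of transcript length, with 1 line for each library. High dose replicate 1 runs from 0.12 in the shortest decile to -0.14 in the longest, while replicates 2 and 3 at this dose rise with length.

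Markers of macrophages and microglia were present, while several genes of microglia in the brain were at or near 0. Of 19 such markers 14 passed the filter, among them the lysozyme gene Lyz2, the most abundant, and Cd68, Csf1r and Trem2. The highest values of Cx3cr1, P2ry12 and Gpr34 in any library were 0.0773, 0.146 and 0.197 FPKM, Sall1 was at 0 in 8 libraries and Siglech in all 9, so these homeostatic microglia genes could not be compared. Tmem119, another such gene, passed the filter with a mean of 2.15 FPKM over the 9 libraries. The summed FPKM of the 19 markers was 3132, 3071 and 2900.04 in the control libraries and 2802, 2424 and 2519 at 100 µg/ml. These ranges did not overlap, but Lyz2 made up much of the sum, and without it the sums were 1827, 1780 and 1639 in the control libraries and 1686, 1507 and 1530 at 100 µg/ml, which overlap. The FPKM summed over all genes of the table also differed between libraries, from 473547 to 522812. Of the 20 markers of neurons, glia, endothelium, fibroblasts, epithelium, lymphocytes and granulocytes only S100a8 passed the filter. The neuron genes Rbfox3, Snap25 and Syt1, the lymphocyte gene Cd3e and the granulocyte gene Ly6g were listed at 0 in every library.

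Microglia are the resident macrophages of the brain. They bind particles, debris and microbes through scavenger receptors, lectins, Fc and complement receptors, and digest what they take up in lysosomes. Several regulators set how such a cell uses amino acids, sterols and sugar. The factor ATF4, raised by the integrated stress response, turns on amino acid transport and synthesis. The SREBP transcription factors, released from the membrane when its sterol is low, turn on cholesterol synthesis, and the LXR receptors turn on sterol export when oxysterols accumulate. The MondoA and ChREBP factors turn on Txnip when sugar phosphates accumulate.

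In cells treated with 100 µg/ml MNPs@SiO2(RITC), limma called 236 of the 11161 genes against control (2.11%), of which 79 were higher in treated cells (0.708%) and 157 lower (1.41%). The changes were small, with a median absolute log2 fold change of 0.42 over the genes called and 0.11 over all genes tested. Only 64 of the genes called changed by more than 0.58 (about 1.5-fold) and 5 by more than 1. For each of the 236 genes the 3 treated libraries lay on 1 side of the 3 control libraries, as they did for 23.8% of all genes tested. Of the genes called, 227 were protein coding. At an unadjusted p under 0.05, 9.67% of all genes tested were higher and 9.69% lower. The counts of the lists below are to be read against these shares and the 2.11% called. The number of calls depended on the libraries in the fit, with 22 genes (0.197%, 3 higher and 19 lower) when the libraries at 10 µg/ml were left out of it, 31 genes (0.278%) without control replicate 2 and 539 genes (4.83%) without high dose replicate 1. A total of 25 genes were called in every one of 6 refits with 1 library removed. These were Oasl1, Txnip and Brd2 among the rises and 22 falls, Hp, Pim2, Gm5874, Marco, Pmm2, Kcnj2, Herpud1, Pou2f2, Plod1, Pck2, Hadhb, Ctsh, Emr1, Lrrc20, Mnat1, Tagap, Nfkbiz, Prdx6, Esyt1, Ctsc, Icam1 and Bcat1. Every other gene described below as called lost the call in at least 1 of these refits.

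**Figure D2:**
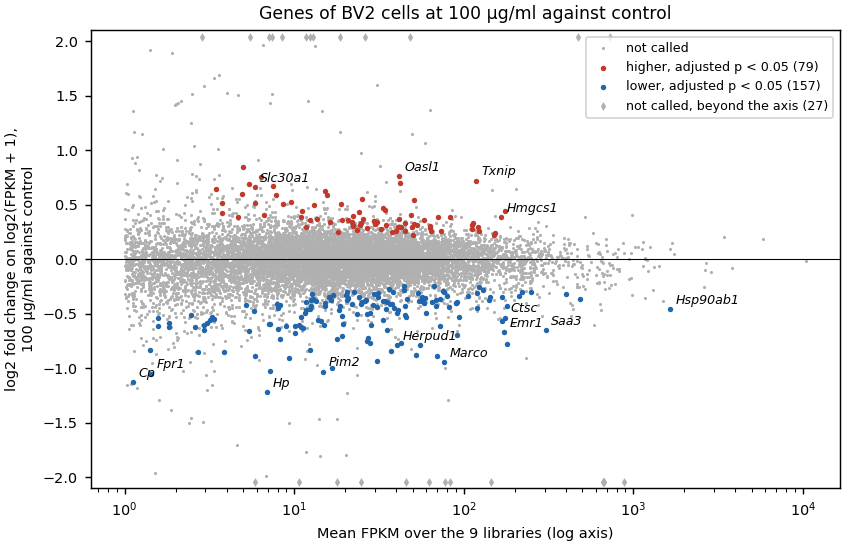
The log2 fold change at 100 µg/ml against control is plotted against mean FPKM (log axis) for the 11161 genes tested, with the 79 genes called higher in red and the 157 called lower in blue. Most genes called lie within 1 log2 unit of 0, and the 27 genes beyond 2 units, drawn as diamonds at the edge, were not called.

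Of the 236 genes called, 76 belong to at least 1 of 56 gene lists of pathways, receptors and complexes, 18 of them higher and 58 lower in treated cells. The list of mitochondrially encoded proteins had no gene matched in the table, and those of odorant receptors and of markers of other cell types each had 1 gene tested and are left out here. Among the other lists the largest median falls were those of secreted acute phase and defence genes (median log2 fold change -0.43), scavenger receptors, lectins and Siglecs (-0.30) and targets of ATF4 (-0.23). The largest median rises were those of Txnip and its relatives (0.27) and of cholesterol synthesis (0.11). Over all genes tested the median was -0.0016. This order rests on the filter. Without it the acute phase and scavenger receptor lists were at -0.076 and -0.073, ATF4 targets at -0.23 and macrophage markers at -0.13, and ATF4 targets lay lowest. Of these other lists 39 held at least 1 gene called, against 13 of them in the fit without control replicate 2 and 52 in that without high dose replicate 1.

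**Figure D3:**
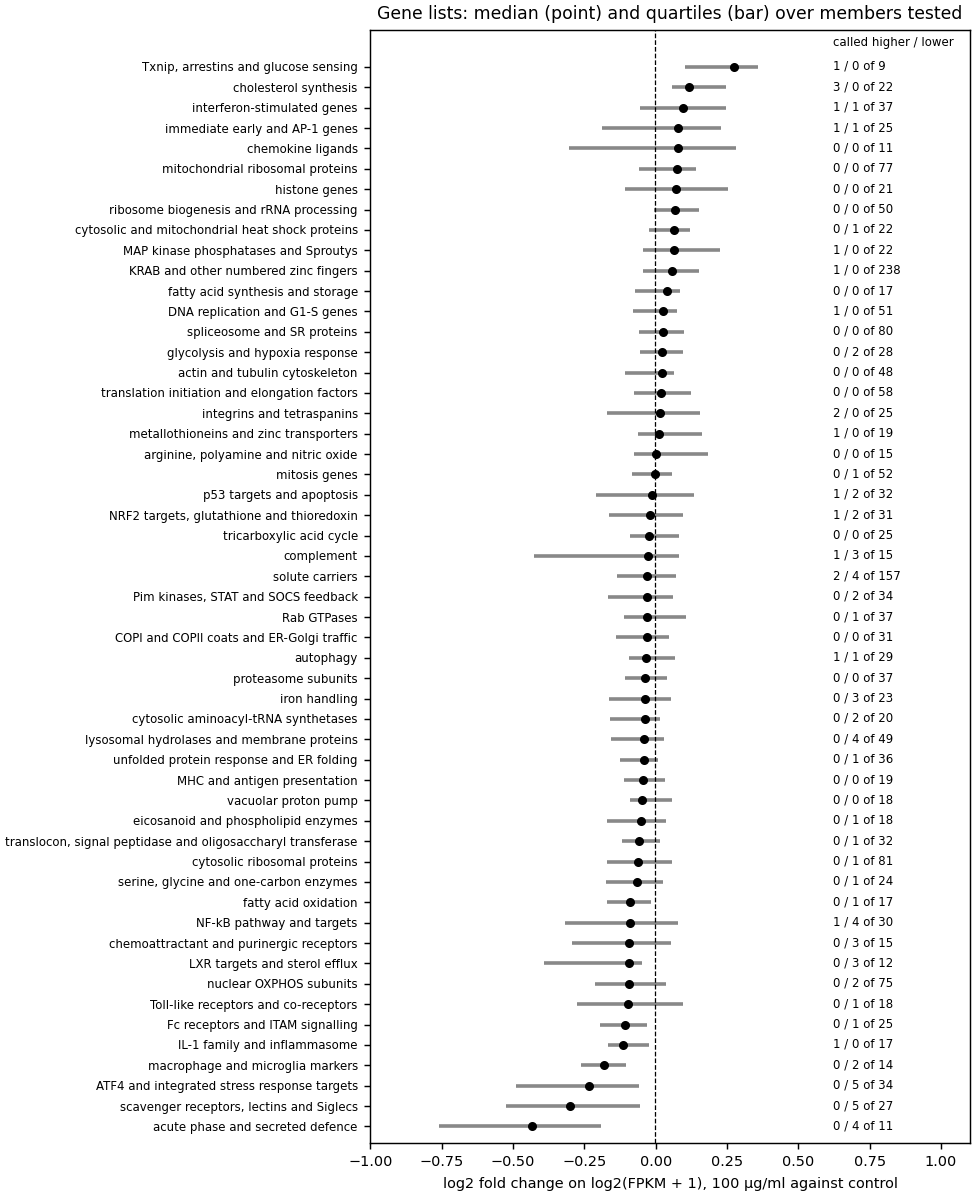
For each gene list with more than 1 member tested the point gives the median log2 fold change over its members tested and the bar the quartiles, with the numbers called higher and lower at the right; the dashed line is the median of all genes. Of these, the acute phase list lies lowest, at -0.43, and the Txnip list highest, at 0.27.

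Several surface receptors by which phagocytes recognise particles and dying cells were lower in treated cells. Of 27 scavenger receptors, lectins and Siglecs tested, 5 were called lower and 0 higher, and 22 had a log2 fold change below 0. The class A scavenger receptor gene Marco (ENSMUSG00000026390, chromosome 1 from 120474538 to 120505024) had 93.8, 103 and 94.1 FPKM across control libraries, 79.3, 85.7 and 82.3 FPKM with 10 µg/ml and 58.04, 42.004 and 50.8 FPKM with 100 µg/ml. All 3 libraries at 100 µg/ml were far below the others, and those at 10 µg/ml were below control. This was a log2 fold change of -0.94 (SE 0.10, adjusted p = 0.00566). The C-type lectin genes Clec4a1 and Clec4a3 of the DCIR family fell by 0.56 and 0.50, the sialic acid receptor gene Siglece fell by 0.59, and Mertk, a receptor tyrosine kinase for the uptake of apoptotic cells, fell by 0.42. Clec4a1 had 14.7, 16.1 and 15.05 FPKM in control cells and 10.9, 9.71 and 9.66 FPKM with 100 µg/ml, a narrow spread in both groups. Several members that were not called also had low values, among them the Siglec gene Cd33 (-0.71, adjusted p = 0.0695), Clec12a (-0.65, adjusted p = 0.0624) and the β-glucan receptor gene Clec7a (-0.56, adjusted p = 0.0727). The scavenger receptor genes Msr1 and Cd36, which bind modified lipoproteins, were at -0.26 (adjusted p = 0.113) and -0.078 (adjusted p = 0.524). On the other side of 0 lay Clec4e and Clec4d, the activating lectins Mincle and MCL, with 0.31 and 0.23 (adjusted p = 0.287 and 0.2497). The number called lower was 1 without control replicate 2 and 8 without high dose replicate 1.

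**Figure D4:**
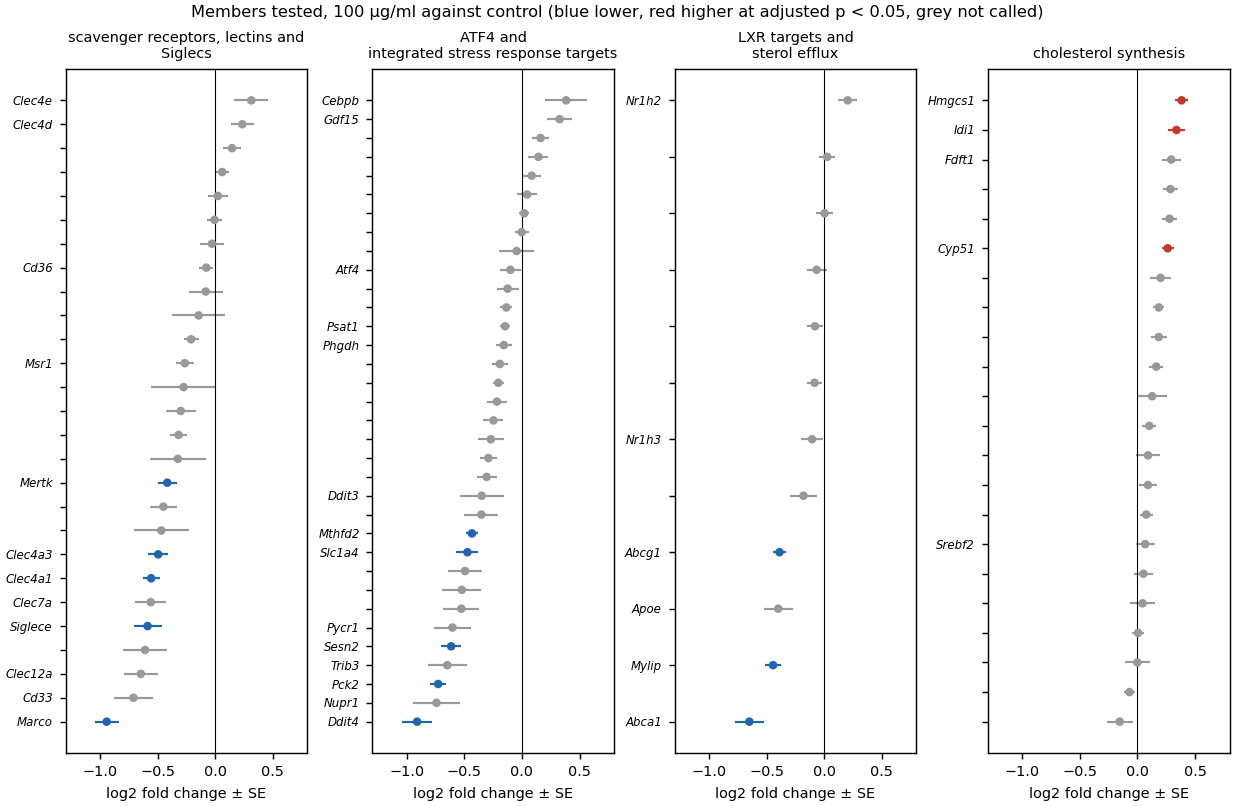
Each point is the log2 fold change of a list member at 100 µg/ml against control, with its standard error, for 4 lists; blue points were called lower, red points higher and grey points not called, and members described in the text carry their names. Points of the lectin and ATF4 lists lie mostly left of 0 and those of cholesterol synthesis mostly right.

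The macrophage glycoprotein F4/80, a surface receptor used as a macrophage marker, is encoded by Emr1 (Adgre1). Emr1 (ENSMUSG00000004730, chromosome 17 from 57358686 to 57483529) had 199, 208 and 200.4 FPKM across control libraries, 192, 193 and 189 FPKM with 10 µg/ml and 117, 133 and 132 FPKM with 100 µg/ml. The low dose libraries lay close to the control libraries, and those of the high dose well below. The log2 fold change at 100 µg/ml was -0.67 (SE 0.057, adjusted p = 0.00224). Of the 14 macrophage markers tested 2 were called, both lower, and Emr1 was 1 of them (in the pair of refits 1 and 3 lower). Aif1, which encodes Iba1, had 7.09, 6.302 and 6.22 FPKM in control cells and 3.92, 4.92 and 2.76 FPKM with 100 µg/ml, with a log2 fold change of -0.65 (adjusted p = 0.0841), and Cd14 had 75.997, 75.03 and 72.5 FPKM in control cells and 106, 89.2 and 113 FPKM with 100 µg/ml (0.45, adjusted p = 0.0621). Cd14 was the only marker tested above 0.

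Genes of the complement system moved in both directions. C1q, whose chains are encoded by C1qa, C1qb and C1qc, starts the classical pathway and tags synapses and debris for uptake. C1qc had 86.9, 85.2 and 77.8 FPKM in control cells and 62.2, 47.2 and 53.6 FPKM with 100 µg/ml, a log2 fold change of -0.61 (SE 0.092, adjusted p = 0.0161), and C1qa fell by 0.89 (adjusted p = 0.00962). C1qb had 198, 201 and 187 FPKM in control cells and 168, 124 and 139.6 FPKM with 100 µg/ml, with a change of -0.45 that missed the threshold (adjusted p = 0.0606). C3ar1, the receptor for the C3a fragment, fell by 0.40 from 103, 102 and 98.03 FPKM to 70.6, 79.7 and 78.8 FPKM, and C3 itself was at -0.52 (adjusted p = 0.0893). Itgb2, the β2 chain of the complement receptors CR3 and CR4, rose by 0.32 (adjusted p = 0.0402), while the α chain gene Itgam was at -0.20 (adjusted p = 0.379). In all, 3 of 15 complement genes tested were called lower and 1 higher, and in the pair of refits 0 and 1 higher and 0 and 4 lower. At an unadjusted p under 0.05 there were 5 lower and 2 higher, against 9.69% and 9.67% of all genes tested.

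Among receptors for chemoattractants, 3 of 15 tested were called lower and 0 higher. They were C3ar1, the formyl peptide receptor gene Fpr1, which fell by 1.05, and Gpr183, the oxysterol receptor EBI2, which fell by 0.55 from 3.72, 3.79 and 3.87 FPKM to 2.37, 2.48 and 1.98 FPKM. Fpr1 had 1.91, 2.17 and 2.49 FPKM in control cells and 0.335, 0.599 and 0.694 FPKM with 100 µg/ml, values near the filter. Gpr183 overlaps another gene of the table, Ubac2, and whether strand was used in counting is not stated. Of the chemokine ligands 11 passed the filter and 0 were called (0 and 1 lower in the pair of refits), with 3 higher and 2 lower at an unadjusted p under 0.05. The most abundant, Ccl3, had 246, 228 and 217 FPKM in control cells and 283, 219.95 and 230.02 FPKM with 100 µg/ml, and the groups overlapped. Fpr1 had a mean of 2.19 FPKM in control cells, 1.59 with 10 µg/ml and 0.543 with 100 µg/ml, so it passed the filter through the groups where it was high, and 2 of the other 14 receptors were called. Called receptors numbered 0 without control replicate 2 and 4 without high dose replicate 1.

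Of 18 Toll-like receptor genes and co-receptors, Tlr2, which recognises bacterial lipoproteins, was the one called, and it was lower. It had 45.6, 46.8 and 46.3 FPKM across control libraries, 41.8, 42.8 and 44.1 FPKM with 10 µg/ml and 30.8, 33.01 and 35.6 FPKM with 100 µg/ml, a change of -0.47 (SE 0.059, adjusted p = 0.00962). Tlr4 was at -0.064 (adjusted p = 0.756). Among 25 Fc receptor and ITAM signalling genes 20 lay below 0 and 1 was called, Ptpn6, which encodes the inhibitory phosphatase SHP-1 and fell by 0.45 from 136, 135 and 127 FPKM to 96.1, 99.5 and 95.3 FPKM. In the list of integrins and tetraspanins Itgb2 and Itgb7 rose, the latter by 0.42 (adjusted p = 0.0456), and no member was called lower (5 were higher and 4 lower at an unadjusted p under 0.05). Itgb7 was called in none of the 6 refits. Without control replicate 2 and without high dose replicate 1 the genes called lower were 0 and 2 for Toll-like receptors and 0 and 3 for Fc receptors, and for integrins 0 and 2 higher and 0 and 1 lower.

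Several genes of secreted acute phase and defence proteins, which bind haemoglobin, iron and copper or act on matrix, were lower. Of 11 tested, 4 were called lower and 0 higher. Haptoglobin, the binder of free haemoglobin, had the largest fall of all genes called on the scale of log2(FPKM + 1), from 9.51, 9.02 and 9.41 FPKM in the control libraries to 3.597, 2.66 and 4.13 FPKM with 100 µg/ml, a change of -1.22 (SE 0.12, adjusted p = 0.00351). Its mean at 100 µg/ml was 37.2% of the control mean, and by this ratio Cp (19.1%), Fpr1 (24.8%) and Slc36a2 (33.3%), all of low FPKM, lay lower. Saa3, an acute phase apolipoprotein and the most abundant member called, had 387, 354 and 329.9 FPKM across control libraries, 328, 302 and 365 FPKM with 10 µg/ml and 269, 200.2 and 216 FPKM with 100 µg/ml. The 3 treated libraries at 100 µg/ml lay below all others, and replicate 2 was the lowest. Its change was -0.65 (SE 0.12, adjusted p = 0.0285). Mmp9, a matrix metalloproteinase, had 13.1, 13.4 and 14.2 FPKM in control cells and 10.9, 9.27 and 10.6 FPKM with 100 µg/ml and fell by 0.37. Cp, the copper ferroxidase ceruloplasmin, had 2.48, 2.26 and 1.42 FPKM in control cells and 0.558, 0.4702 and 0.146 FPKM with 100 µg/ml, below 1 FPKM after treatment in each library, and the gene overlaps Hps3 in the table. Its group mean was at least 1 FPKM in control cells alone, so it passed the filter only through the group where it was high, and 3 of the other 10 members were called. The siderophore-binding Lcn2 was at -0.58 (adjusted p = 0.0723). Spp1, osteopontin, was the most abundant member of the list and had 5632, 5614 and 5379 FPKM in control cells and 6907, 5848 and 6167 FPKM with 100 µg/ml. Its groups did not overlap, but the change of 0.18 was not called (adjusted p = 0.235). The number of calls was 1 without control replicate 2 and 5 without high dose replicate 1.

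The core of the particles contains iron and cobalt, and genes of metal handling were examined for this reason. Beside Hp, and Cp with the limit just given, only Slc11a2 of 23 iron genes was called, the proton-coupled metal transporter DMT1, which fell by 0.29 from 75.7, 80.2 and 85.1 FPKM to 61.7, 67.6 and 67.5 FPKM. The transferrin receptor gene Tfrc was at -0.21 (adjusted p = 0.09602), and haem oxygenase, Hmox1, had 312, 317 and 300.1 FPKM in control cells and 366, 300.4 and 331 FPKM with 100 µg/ml with a change of 0.10 (adjusted p = 0.539). Ftl1, the ferritin light chain, had 0.11 (adjusted p = 0.63997), with a standard error of 0.11. Of 19 metallothionein and zinc transporter genes 1 was called. Slc30a1, the plasma membrane zinc exporter ZnT1, had 5.47, 4.32 and 4.42 FPKM across control libraries, 4.25, 5.33 and 4.86 FPKM with 10 µg/ml and 7.86, 7.204 and 9.09 FPKM with 100 µg/ml. Each of the 3 libraries at 100 µg/ml was above the other 6. The rise was 0.66 (SE 0.12, adjusted p = 0.0279), and the gene overlaps another of the table. The metallothionein genes, which bind zinc, copper and cadmium, varied widely within groups. Mt1 had 729, 548 and 426 FPKM in control cells and 819.5, 515 and 669.6 FPKM with 100 µg/ml, and Mt2 had 269.6, 143 and 128 FPKM in control cells and 323, 188 and 312 FPKM with 100 µg/ml, with changes of 0.24 and 0.65 (adjusted p = 0.587 and 0.308). In the pair of refits the iron list held 0 and 1 higher and 1 and 3 lower, and the metallothionein and zinc list 0 and 2 higher and 0 and 1 lower.

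Most targets of ATF4 and the integrated stress response lay below control, and some were called lower. Of 34 tested, 5 were called lower and 0 higher, and 27 had a log2 fold change below 0. At an unadjusted p under 0.05, 22 were lower and 1 higher, against 9.69% and 9.67% of all genes. Those called were Ddit4 and Sesn2, inhibitors of mTORC1, Pck2, the mitochondrial phosphoenolpyruvate carboxykinase, Slc1a4, a transporter of serine and alanine, and Mthfd2, a mitochondrial folate enzyme. Ddit4 had 10.7, 11.2 and 11.3 FPKM across control libraries, 13.9, 9.37 and 11.5 FPKM with 10 µg/ml and 6.001, 4.697 and 5.59 FPKM with 100 µg/ml, and fell by 0.91. Sesn2 had 9.78, 11.9 and 12.2 FPKM across control libraries, 12.7, 11.4 and 11.8 FPKM with 10 µg/ml and 6.86, 7.44 and 6.72 FPKM with 100 µg/ml. At the lower dose both genes lay near control, and at the higher dose all libraries were below. The change of Sesn2 was -0.62 (SE 0.089, adjusted p = 0.0142). Mthfd2 had 89.8, 91.4 and 91.04 FPKM in control cells and 71.5, 64.4 and 64.9 FPKM with 100 µg/ml, and fell by 0.43 (SE 0.054, adjusted p = 0.00962). Other members not called included Nupr1, a stress-induced nuclear protein (-0.74, adjusted p = 0.0975), the pseudokinase gene Trib3 (-0.65, adjusted p = 0.0863), the proline synthesis gene Pycr1 (-0.60, adjusted p = 0.0868) and Ddit3, which encodes CHOP (-0.35, adjusted p = 0.365). Atf4 itself had 201, 196 and 192 FPKM in control cells and 216, 167 and 170.3 FPKM with 100 µg/ml, with a change of -0.10 (adjusted p = 0.601). Above 0 lay Cebpb (0.38, adjusted p = 0.296) and Gdf15 (0.33, adjusted p = 0.151). The number called lower was 1 without control replicate 2 and 13 without high dose replicate 1, and the median was -0.22 and -0.25.

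The promoters of the ATF4 list were read for the C/EBP-ATF element, the letters TGATGNAA on either strand, in the 300 bases from 250 before to 50 after the start of the gene. In RefSeq sequence of build GRCm38.p6, 32 of the 34 genes had a promoter and 10 of these held the letters, as did 2.71% of all tested genes with a promoter. Of the 5 genes called, Pck2 and Slc1a4 held them, and Ddit4, Sesn2 and Mthfd2 did not. Both are shown 5′ to 3′ on the strand of the gene, in lower case with the matching letters, here on the opposite strand, in capitals. The match begins 103 bases before the start of Pck2 and 4 bases before that of Slc1a4.
Pck2, chr14:55540016-55540315, plus strand: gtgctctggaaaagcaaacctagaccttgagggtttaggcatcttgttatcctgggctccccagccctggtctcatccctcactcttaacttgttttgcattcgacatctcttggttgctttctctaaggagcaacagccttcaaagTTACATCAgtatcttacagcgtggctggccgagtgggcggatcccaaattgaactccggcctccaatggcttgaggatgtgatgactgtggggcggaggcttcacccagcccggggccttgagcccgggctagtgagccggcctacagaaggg
Slc1a4, chr11:20332664-20332963, minus strand: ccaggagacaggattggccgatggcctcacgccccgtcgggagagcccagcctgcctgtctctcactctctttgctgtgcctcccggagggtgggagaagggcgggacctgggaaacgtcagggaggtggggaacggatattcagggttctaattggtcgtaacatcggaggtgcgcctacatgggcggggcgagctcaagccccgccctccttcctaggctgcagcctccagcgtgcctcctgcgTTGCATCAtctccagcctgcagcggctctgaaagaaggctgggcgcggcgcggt
A match of letters describes the window and is not evidence of binding.

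Pck2 had 20.5, 21.5 and 21.8 FPKM across control libraries, 21.2, 19.4 and 19.8 FPKM with 10 µg/ml and 13.7, 11.9 and 11.9 FPKM with 100 µg/ml, and its libraries at 100 µg/ml lay below the other 6. Its change was -0.73 (SE 0.069, adjusted p = 0.00331). Slc1a4 had 5.82, 7.03 and 6.802 FPKM across control libraries, 7.08, 6.45 and 5.804 FPKM with 10 µg/ml and 4.27, 4.76 and 4.25 FPKM with 100 µg/ml, and fell by 0.47, a call lost in all 6 refits.

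The aminoacyl-tRNA synthetases, which load amino acids on tRNA and of which several are ATF4 targets, lay more often below control than above. Nars and Aars, for asparagine and alanine, were called lower among 20 tested, and 0 were higher. Nars had 158, 161 and 151 FPKM in control cells and 132, 122 and 115 FPKM with 100 µg/ml, and fell by 0.35. Aars had 81.6, 90.2 and 88.7 FPKM in control cells and 68.8, 66.9 and 69.9 FPKM with 100 µg/ml, and fell by 0.34. The median of the list was -0.038, 13 members lay below 0, and 6 were lower and 1 higher at an unadjusted p under 0.05. In the list of serine, glycine and one-carbon enzymes Mthfd2 was the one gene called of 24, and the serine synthesis genes Phgdh and Psat1 were at -0.16 and -0.15 (adjusted p = 0.248 and 0.134). In the pair of refits 0 and 4 synthetases and 0 and 4 serine and one-carbon enzymes were lower.

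Herpud1, which helps to clear misfolded proteins from the endoplasmic reticulum, was called lower, the only one of 36 genes of the unfolded protein response. The median of the list was -0.043, 26 members lay below 0, and 7 were lower and 0 higher at an unadjusted p under 0.05. Herpud1 had 44.4, 45.99 and 48.5 FPKM across control libraries, 51.7, 46.6 and 47.4 FPKM with 10 µg/ml and 26.4, 26.6 and 26.1 FPKM with 100 µg/ml. The 3 libraries at the higher dose were nearly equal and lay below the other 6. Its change was -0.79 (SE 0.057, adjusted p = 0.00117). Hspa5, the chaperone BiP and most abundant of the list, had 856, 857 and 849 FPKM in control cells and 834, 767 and 781 FPKM with 100 µg/ml, with -0.11 (adjusted p = 0.302), and Manf was at -0.31 (adjusted p = 0.114). The ER stress element, the letters CCAAT and CCACG with 9 bases between them, was in 9 of the 32 promoters of this list and in 0.158% of promoters of all tested genes. These exact letters were not in that of Herpud1. Variants of the element were not sought, so their presence or absence in that promoter is not given here. Of 32 translocon, signal peptidase and oligosaccharyl transferase genes Ssr3 alone was called, and it fell by 0.25. Among 31 genes of COPI and COPII coats and traffic between the endoplasmic reticulum and Golgi 0 were called, with 3 lower and 0 higher at an unadjusted p under 0.05. The pair of refits had 1 and 3 lower for the unfolded protein response, 0 and 2 for the translocon list and 0 and 3 for the coats.

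The genes called in cholesterol synthesis were higher and those called in sterol export were lower. Of 22 synthesis genes tested, 3 were called higher and 0 lower, and 19 lay above 0. They were Hmgcs1, which makes HMG-CoA, Idi1, which makes dimethylallyl diphosphate, and Cyp51, the lanosterol demethylase. Hmgcs1 (ENSMUSG00000093930, chromosome 13 from 119690462 to 119708086) had 148, 152 and 156 FPKM across control libraries, 138, 149 and 151 FPKM with 10 µg/ml and 203, 205 and 188 FPKM with 100 µg/ml. Its libraries at 100 µg/ml were above all others, and those at 10 µg/ml overlapped control. The change was 0.38 (SE 0.056, adjusted p = 0.0143). Idi1 had 19.1, 19.2 and 22.3 FPKM in control cells and 27.2, 24.5 and 25.6 FPKM with 100 µg/ml, and Cyp51 had 66.8, 68.6 and 73.7 FPKM in control cells and 85.3, 85.1 and 80.97 FPKM with 100 µg/ml, with rises of 0.34 and 0.26 (adjusted p = 0.04699 and 0.0414). Fdft1, the squalene synthase, was at 0.29 (adjusted p = 0.107). Srebf2, the regulator of the pathway, was at 0.067 (adjusted p = 0.705). Without control replicate 2 0 genes of the list were called, and without high dose replicate 1 3.

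Of 12 LXR targets and sterol export genes 3 were called lower and 0 higher. Abca1, which exports cholesterol to apolipoprotein A-I, had 39.7, 41.3 and 42.4 FPKM across control libraries, 39.5, 39.8 and 37.96 FPKM with 10 µg/ml and 20.3, 28.5 and 29.8 FPKM with 100 µg/ml. The treated libraries at 100 µg/ml lay below the other 6, and replicate 1, the one with the length gradient, was the lowest. Its change was -0.65 (SE 0.12, adjusted p = 0.0345), and -0.48 without that replicate (adjusted p = 0.00552). Abcg1, which exports sterol to HDL, had 36.96, 38.6 and 38.4 FPKM in control cells and 28.1, 30.5 and 27.8 FPKM with 100 µg/ml, with -0.39 (SE 0.053, adjusted p = 0.0106). Mylip, the ubiquitin ligase IDOL, fell by 0.44 from 9.56, 9.14 and 8.58 FPKM to 6.202, 6.28 and 6.76 FPKM. Apoe was at -0.40 (adjusted p = 0.131), and the receptor genes Nr1h2 and Nr1h3 were at 0.20 and -0.11 (adjusted p = 0.235 and 0.586). Called LXR targets numbered 0 without control replicate 2 and 4 without high dose replicate 1. Among 17 genes of fatty acid synthesis and storage, 0 were called in limma and 4 were higher at an unadjusted p under 0.05. The pair of refits called 0 and 1 of them higher.

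The list with the highest median was that of Txnip, its arrestin relatives and their sugar-sensing regulators. Txnip binds thioredoxin and lowers glucose uptake. Txnip (ENSMUSG00000038393, chromosome 3 from 96557957 to 96561883) had 93.8, 97.5 and 89.5 FPKM across control libraries, 99.9, 115 and 109 FPKM with 10 µg/ml and 157, 158 and 149 FPKM with 100 µg/ml. The libraries at 100 µg/ml lay above the other 6, and those at 10 µg/ml above control. Its rise was 0.72 (SE 0.063, adjusted p = 0.00224), and the difference between the doses was also called (adjusted p = 0.0133). It was the one gene called of 9 tested, and 5 were higher at an unadjusted p under 0.05. The pair of refits called 1 and 1 of the list higher. Arrdc4, an arrestin close to Txnip, had 8.45, 8.52 and 9.902 FPKM in control cells and 13.9, 9.91 and 15.3 FPKM with 100 µg/ml, with 0.48 (adjusted p = 0.169), and Arrdc2 was at 0.36 (adjusted p = 0.0615). The carbohydrate element, a pair of E-boxes CACGTG 5 bases apart with at most 1 base different in each, was found in the promoter of Txnip and in 0.364% of the promoters of all tested genes (30 of 8243). It begins 85 bases before the start of the gene, and is in capitals here.
Txnip, chr3:96557707-96558006, plus strand: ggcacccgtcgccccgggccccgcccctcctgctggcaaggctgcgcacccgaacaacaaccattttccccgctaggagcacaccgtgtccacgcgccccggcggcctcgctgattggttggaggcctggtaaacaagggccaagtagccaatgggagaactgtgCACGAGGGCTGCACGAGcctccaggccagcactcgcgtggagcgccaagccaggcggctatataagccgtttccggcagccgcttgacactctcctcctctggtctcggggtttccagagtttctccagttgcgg
Of the 7 members of the list with a promoter, Txnip alone held these letters.

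Single genes of sugar and energy metabolism were called. Of 28 glycolysis and hypoxia genes 2 were called lower and 0 higher (0 and 2 lower in the pair of refits), while 16 lay above 0, the median was 0.023, and 4 were higher and 3 lower at an unadjusted p under 0.05. Hk2, the inducible hexokinase, had 69.3, 71.2 and 71.7 FPKM in control cells and 50.2, 55.7 and 55.5 FPKM with 100 µg/ml, with -0.39 (SE 0.055, adjusted p = 0.0132), and Ndrg1, a hypoxia target, fell by 0.42. Ldha, the most abundant of the list, was at 0.15 (adjusted p = 0.255). Hadhb, of the mitochondrial trifunctional protein that carries out β-oxidation, had 31.3, 37.2 and 31.8 FPKM across control libraries, 28.3, 30.6 and 26.7 FPKM with 10 µg/ml and 20.6, 19.4 and 19.5 FPKM with 100 µg/ml, a change of -0.72 (SE 0.079, adjusted p = 0.00566), and was the one gene called of 17 for fatty acid oxidation, of which 15 lay below 0. Of 25 tricarboxylic acid cycle genes 0 were called in limma, and 1 was higher and 2 lower at an unadjusted p under 0.05. In the pair of refits 1 and 1 genes of fatty acid oxidation were lower, and for the tricarboxylic acid cycle 0 and 1 higher and 0 and 1 lower.

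In the respiratory chain Ndufs4, of complex I, and Atp5a1, of the ATP synthase, were called lower among 75 nuclear genes tested. This was 2.67% of the list, near the 2.11% of all genes tested. Ndufs4 had 60.2, 53.2 and 48.2 FPKM in control cells and 34.7, 28.5 and 30.7 FPKM with 100 µg/ml, and fell by 0.76. Atp5a1 had 532, 519 and 529.9 FPKM in control cells and 439.6, 403 and 386 FPKM with 100 µg/ml, and fell by 0.37. The list median was -0.095, and -0.23 without high dose replicate 1. These transcripts had a median length of 607 nt against 1231.5 nt over all genes tested. Neither a correction for GC content and transcript length nor leaving out that library moved the median by more than its replicate SD of 0.18. That SD includes high dose replicate 1 itself, where the median deviation of the list was 0.22, against -0.17 and -0.11 in replicates 2 and 3 at this dose. A move within so wide an SD does not show that the median was stable. What part the length gradient of that library had in this result was not tested separately. The same holds for cytosolic ribosomal proteins (median length 632 nt), with a median log2 fold change of -0.063 over 81 genes and -0.20 without that library. Rpl11 alone was called, while the pair of refits called 0 and 7 ribosomal protein genes and 0 and 5 respiratory chain genes lower. Rpl11 had 56.8, 59.2 and 52.3 FPKM across control libraries, 38.5, 40.3 and 42.01 FPKM with 10 µg/ml and 44.7, 33.1 and 39.9 FPKM with 100 µg/ml, and the lower dose libraries lay below control as well.

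The digestive machinery changed in a few members. Of 49 lysosomal hydrolases and membrane proteins 4 were called lower and 0 higher, with a median of -0.040. The number called lower was 2 without control replicate 2 and 6 without high dose replicate 1. Ctsc, cathepsin C, which activates serine proteases of leukocytes, had 205, 202 and 199 FPKM across control libraries, 189, 183 and 190.1 FPKM with 10 µg/ml and 143, 133 and 142 FPKM with 100 µg/ml. The groups did not overlap, and the libraries at 100 µg/ml lay well below the others. Its change was -0.54 (SE 0.047, adjusted p = 0.00224). Ctsh, the aminopeptidase cathepsin H, had 20.04, 24.5 and 23.7 FPKM in control cells and 13.9, 13.9 and 12.8 FPKM with 100 µg/ml, with -0.70 (SE 0.083, adjusted p = 0.00765). Lipa, the acid lipase that frees cholesterol from its esters, fell by 0.31 from 130.2, 128 and 134 FPKM to 98.6, 110.2 and 106 FPKM. Other cathepsin genes were not called. Ctsk, the most abundant, had 3401, 3299.9 and 3101 FPKM in control cells and 4182, 3485 and 3616 FPKM with 100 µg/ml (0.20, adjusted p = 0.255), and Ctsd was at 0.092 (adjusted p = 0.571). Of 18 subunits of the proton pump 0 were called, with 3 lower and 1 higher at an unadjusted p under 0.05. Among 29 autophagy genes Uvrag rose by 0.33 and Gabarapl1, which encodes a protein of the autophagosome membrane, fell by 0.42 from 35.4, 31.9 and 30.9 FPKM to 25.2, 23.1 and 24.03 FPKM. The list does not hold Atg9b, which was called higher and is given below. In the pair of refits the autophagy list held 0 and 1 higher and 0 and 1 lower, and the proton pump 0 and 1 lower.

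**Figure D5:**
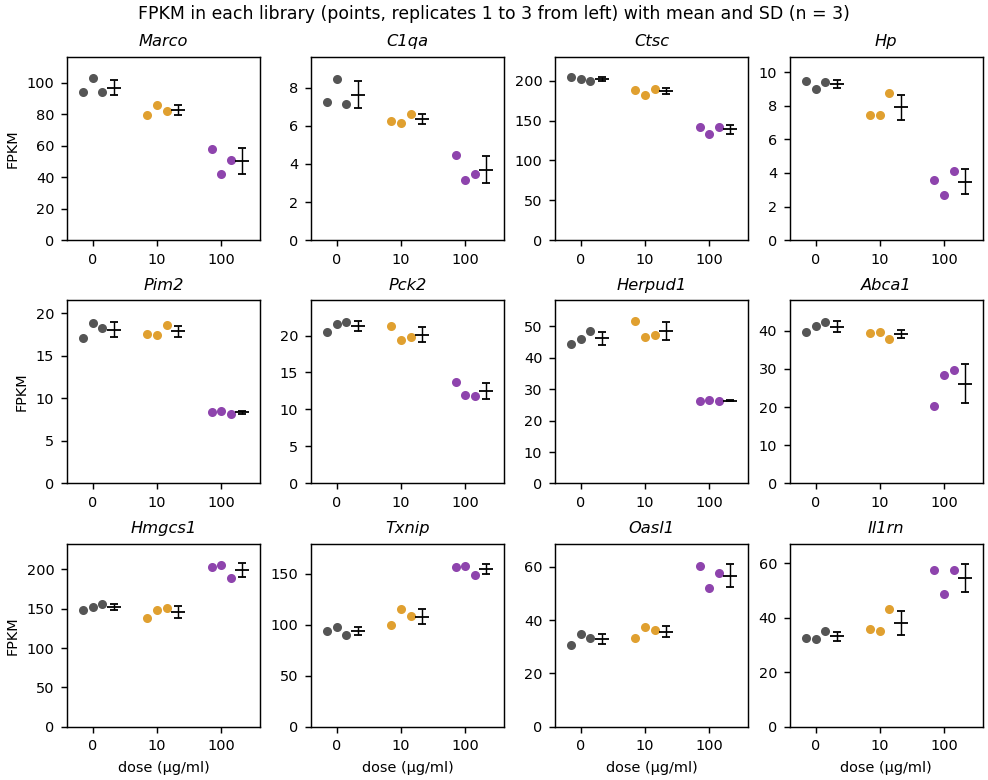
FPKM of 12 genes is shown in each library at 0 (control), 10 and 100 µg/ml, with points for replicates 1 to 3 from left to right and bars for mean and SD (n = 3). For every gene shown the 3 libraries at 100 µg/ml lie on 1 side of the 3 control libraries.

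Of 30 genes of the NF-kB pathway and its targets, 4 were called lower and 1 higher, which is 16.7% of the list against 2.11% of all genes tested. Without control replicate 2 there were 3 lower and 0 higher, and without high dose replicate 1 5 and 1. Nfkbiz, an inhibitor family member that also activates secondary response genes, had 31.6, 32.3 and 30.6 FPKM across control libraries, 34.4, 32.2 and 32.2 FPKM with 10 µg/ml and 19.2, 20.5 and 21.6 FPKM with 100 µg/ml. Its change was -0.60 (SE 0.058, adjusted p = 0.00351). Icam1, the adhesion molecule, fell by 0.46, from 21.7, 21.7 and 20.04 FPKM to 15.1, 14.9 and 15.3 FPKM, Cd83 fell by 0.85, and the mitochondrial superoxide dismutase gene Sod2 fell by 0.39. Rela, the p65 subunit, rose from 20.9, 20.8 and 22.1 FPKM to 26.2, 25.7 and 25.4 FPKM, by 0.27 (adjusted p = 0.03697). Tnf, the cytokine, had 29.6, 25.3 and 30.2 FPKM in control cells and 33.8, 28.5 and 27.8 FPKM with 100 µg/ml, with 0.079 (adjusted p = 0.685), and the inhibitor gene Nfkbia was at -0.32 (adjusted p = 0.0741). Of the IL-1 family and inflammasome list Il1rn alone was called of 17. It encodes the antagonist of the IL-1 receptor. It had 32.4, 32.1 and 35.2 FPKM across control libraries, 35.8, 35.03 and 43.04 FPKM with 10 µg/ml and 57.4, 48.8 and 57.6 FPKM with 100 µg/ml, and the rise was 0.70 (SE 0.095, adjusted p = 0.0107). The precursor gene Il1a was at -0.15 (adjusted p = 0.417), and the inflammasome sensor gene Nlrp3 at -0.19 (adjusted p = 0.523). The pair of refits called 0 and 1 genes of this list higher.

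Of 37 interferon-stimulated genes tested, Oasl1 was called higher and Tor3a lower, and 24 lay above 0. Oasl1, a member of the oligoadenylate synthetase family that represses translation of the Irf7 mRNA, had 30.8, 34.8 and 33.2 FPKM across control libraries, 33.4, 37.4 and 36.1 FPKM with 10 µg/ml and 60.3, 51.9 and 57.6 FPKM with 100 µg/ml. Every library at 100 µg/ml was above the other 6. The rise was 0.76 (SE 0.074, adjusted p = 0.00351). Tor3a had 38.2, 41.2 and 43.7 FPKM in control cells and 31.7, 30.8 and 29.5 FPKM with 100 µg/ml, and fell by 0.41. Rtp4 was at 0.70 (adjusted p = 0.0549), Cxcl10 at 0.48 (adjusted p = 0.125), and Oas2 at 0.33 (adjusted p = 0.121). The list had a median of 0.10, with 8 higher and 3 lower at an unadjusted p under 0.05, and in the pair of refits 1 and 2 higher and 0 and 1 lower were called. Its response element, the letters TTTCNNTTTC on either strand, was in 13 of 27 promoters of the list, in 3.62% of those of all tested genes, and not in that of Oasl1. No different base was allowed in these letters, while 1 was allowed in each E-box of the carbohydrate element, so the searches were not equally strict.

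Feedback genes of kinase pathways held a few larger changes. Pim2, a serine/threonine kinase induced by STAT signalling and a survival factor, had 17.1, 18.9 and 18.3 FPKM across control libraries, 17.5, 17.4 and 18.6 FPKM with 10 µg/ml and 8.37, 8.53 and 8.11 FPKM with 100 µg/ml. The libraries at 100 µg/ml were within 1 FPKM of each other and far below the rest. Its change was -1.03 (SE 0.059, adjusted p = 0.000411). Il10ra, the ligand-binding chain of the IL-10 receptor, fell by 0.51 from 2.98, 3.04 and 2.74 FPKM to 1.84, 1.805 and 1.62 FPKM, and the 34 genes of this list held 0 called higher. Dusp5, a nuclear phosphatase of ERK, was called higher of 22 MAP kinase phosphatases and Sproutys. It had 5.19, 5.83 and 6.61 FPKM in control cells and 11.03, 8.97 and 9.79 FPKM with 100 µg/ml, a rise of 0.67 (SE 0.10, adjusted p = 0.0159). Among 25 immediate early genes Ier5 rose by 0.45 and Zfp36l1, which destabilises AU-rich mRNAs, fell by 0.61 from 13.1, 13.4 and 11.2 FPKM to 7.31, 8.34 and 7.96 FPKM. For Il10ra, Dusp5, Ier5 and Zfp36l1 the adjusted p without control replicate 2 was 0.0993, 0.0813, 0.105 and 0.136. In the pair of refits the list of Pim2 held 0 and 2 higher and 1 and 3 lower, the MAP kinase phosphatases 0 and 2 higher, and the immediate early genes 0 and 2 higher and 0 and 1 lower.

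The oxidative stress and p53 lists were mixed. Of 31 NRF2, glutathione and thioredoxin genes, Txnrd1, thioredoxin reductase, rose from 113, 109 and 111 FPKM to 135, 135 and 139 FPKM, by 0.30 (adjusted p = 0.0197). Prdx6, a peroxiredoxin that also acts on phospholipids, had 191, 191 and 196 FPKM across control libraries, 174, 180.1 and 193 FPKM with 10 µg/ml and 137, 119.8 and 132 FPKM with 100 µg/ml, a change of -0.57 (SE 0.063, adjusted p = 0.00577). Sod2 was the other gene called lower. The glutathione synthesis genes Gclc and Gclm were at 0.19 and 0.21 (adjusted p = 0.0723 and 0.1702). In the p53 list Plk2 rose by 0.22 and the stress protein genes Sesn1 and Sesn2 fell by 0.43 and 0.62. Hsp90ab1, the cytosolic chaperone HSP90β, fell by 0.46, from 1971, 1884 and 1824 FPKM to 1345, 1409.8 and 1367 FPKM, the one gene called of 22 heat shock genes, whose median was 0.065. The pair of refits called 0 and 1 higher and 1 and 2 lower for the NRF2 list, 0 and 1 higher and 0 and 3 lower for the p53 list and 0 and 1 heat shock genes lower.

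The lists of DNA replication and of mitosis held 1 call each. Dbf4, which activates the replication kinase CDC7, rose by 0.32 and was the one gene called of 51 for DNA replication, and Anln, which encodes anillin of the cleavage furrow, fell by 0.32, the one gene called of 52 for mitosis. Limma called 0 genes in each of the lists of spliceosome proteins (80 tested, 10 higher and 8 lower at an unadjusted p under 0.05), proteasome subunits (37, 1 and 4), translation factors (58, 10 and 5), ribosome biogenesis (50, 14 and 1), mitochondrial ribosomal proteins (77, 8 and 4), actin and tubulin genes (48, 3 and 8), MHC and antigen presentation (19, 0 and 1), histones (21, 5 and 1) and arginine and polyamine genes (15, 3 and 2). Ribosome biogenesis had 35 of 50 genes above 0 and a median of 0.066, and mitochondrial ribosomal proteins and histones had medians of 0.076 and 0.072. Without high dose replicate 1 the median of the mitochondrial ribosomal proteins was -0.040, on the other side of 0, and their median transcript length was 852.25 nt. Of the lists with 0 calls named in this paragraph none gained one without control replicate 2, and without high dose replicate 1 limma called lower 5 proteasome genes, 4 of the spliceosome, 3 mitochondrial ribosomal genes, 3 of actin and tubulin, and 1 translation factor, 1 histone and 1 arginine or polyamine gene, and higher 3 of ribosome biogenesis, 1 of the spliceosome, 1 of actin and tubulin and 1 of the arginine list. Of 238 numbered zinc finger genes, many of them repressors of transposons, 150 were above 0 and Zfp64 was called higher. Single genes were called lower among 37 Rab GTPases (Rab32, which directs traffic to lysosome-related organelles, -0.30) and 18 eicosanoid and phospholipid enzymes (the lysosomal phospholipase gene Pla2g15, -0.43). The pair of refits called 0 and 1 genes of DNA replication higher, 0 and 1 higher and 0 and 2 lower of mitosis, 0 and 3 zinc finger genes higher, and 0 and 1 Rab and 0 and 1 eicosanoid genes lower.

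Among 157 solute carriers 2 were called higher and 4 lower. Slc30a1 and Slc16a1, the lactate and pyruvate transporter MCT1, were higher, the latter by 0.24, with 139.8, 141 and 145 FPKM in control cells and 171, 166 and 165 FPKM with 100 µg/ml. The amino acid carriers Slc1a4, Slc36a2 and Slc7a7 and the metal carrier Slc11a2 were lower. Slc7a7, the light chain of a cationic amino acid exchanger, had 2.24, 2.54 and 2.198 FPKM in control cells and 1.1004, 1.06 and 1.33 FPKM with 100 µg/ml, and overlaps Oxa1l in the table. Slc36a2 had means of 1.92, 1.65 and 0.640 FPKM in control cells, at 10 and at 100 µg/ml, and passed the filter through the groups where it was high. Of the other 156 carriers 3 were called lower. The carriers called numbered 0 higher and 0 lower without control replicate 2, and 5 higher and 6 lower without high dose replicate 1.

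Beyond the groups above, the 15 largest falls on the scale of log2(FPKM + 1) included St6gal1, which adds sialic acid to glycans and had 40.04, 42.3 and 41.5 FPKM in control cells and 14.97, 26.02 and 24.3 FPKM with 100 µg/ml, Pmm2, a phosphomannomutase of glycan synthesis with 60.4, 67.6 and 66.9 FPKM in control cells and 35.4, 32.6 and 36.7 FPKM with 100 µg/ml, and Kcnj2, an inward rectifier potassium channel with 47.2, 47.1 and 43.7 FPKM in control cells and 22.4, 27.4 and 26.1 FPKM with 100 µg/ml. Their changes were -0.93, -0.88 and -0.84 (adjusted p = 0.0381, 0.00117 and 0.00351). Commd9 fell by 0.89, the one odorant receptor gene tested, Olfr111, by 1.03, the polycomb gene Phc1 by 0.85, and Gm5874 by 1.00. Gm5874 is a processed pseudogene, and whether reads of a parent gene were counted for it was not tested. The 15 largest rises included Spsb4, a SOCS box protein with 4.81, 4.87 and 4.999 FPKM in control cells and 10.1, 7.53 and 9.35 FPKM with 100 µg/ml, the transcription factor gene Zbtb32 (0.65), the cation pump gene Atp13a4 (0.62), the autophagy gene Atg9b (0.59), Srgn, the core of granule proteoglycans (0.58), the small GTPase gene Rhob (0.55) and Yrdc, a tRNA modification enzyme (0.54). Pmm2 and Yrdc overlap other genes of the table, Tmem186 and 1110065P20Rik. Rhob had 20.1, 20.6 and 20.98 FPKM in control cells and 33.7, 30.7 and 27.8 FPKM with 100 µg/ml, and Srgn had 15.2, 10.9 and 12.7 FPKM in control cells and 21.5, 19.3 and 18.6 FPKM with 100 µg/ml.

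The same genes were measured at 10 µg/ml against the same control libraries, where limma called 0 of the 11161 genes and 366 (3.28%) had an unadjusted p under 0.05. The medians at 10 and 100 µg/ml were 0.011 and -0.30 for scavenger receptors, lectins and Siglecs, -0.0064 and -0.23 for ATF4 targets, -0.11 and -0.43 for acute phase genes, -0.011 and 0.11 for cholesterol synthesis and 0.080 and 0.27 for the Txnip list. Tested directly, 95 genes (0.851%) differed between the doses, and 87 of the 236 genes called against control were among them. These included Pim2 (-1.01 at 100 against 10 µg/ml, adjusted p = 0.000471), Herpud1 (-0.86, 0.000747), Nfkbiz (-0.66, 0.00424), Emr1 (-0.59, 0.00598), Pck2 (-0.65, 0.00841), Ctsc (-0.43, 0.00989), Abcg1 (-0.41, 0.0138) and Hmgcs1 (0.45, 0.0138). Saa3 and Abca1 did not pass this test (adjusted p = 0.0844 and 0.0797), nor did Rpl11 (-0.47 at 10 µg/ml and -0.51 at 100 µg/ml against control, adjusted p = 0.881 for the difference).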

How the data were processed

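RNA of BV2 cells was sequenced in 9 libraries, 3 in each of 3 groups taken from the labels. Per the labels and the study's methods, poly(A) RNA was selected on oligo(dT) beads. The methods name a TruSeq stranded total RNA kit at RNA extraction and a TruSeq RNA sample kit for the cDNA. The authors used TopHat for alignment, and their deposited FPKM comes from Cufflinks 2.1.1 (Ensembl release 77, multi-read and fragment-bias correction on). FPKM divides out transcript length and depth, but a gene can still move when others take a larger share, and a gene listed at 0 can be a failed estimate. Whether strand was used in counting is not given in the sources used here, and 30 of the genes called overlap another gene of at least 0.1 times their mean FPKM.

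FPKM was taken to log2(FPKM + 1) and limma 3.58.1 (R 4.3.3) was run on genes with a mean of at least 1, by lmFit and eBayes with trend (two-sided, Benjamini-Hochberg adjustment), with the 3 groups in one fit. Depth was estimated from steps between low values of genes whose transcripts exceed 1500 nt, with between 70.6% and 81.0% of values within 0.25 of a whole fragment. A tolerance of 0.25 on either side takes in many values by chance, and the depth was chosen to fit these same values. The shares are therefore no independent check of it. Python 3.11.15, pandas 2.3.3, numpy 2.4.6 and matplotlib 3.10.9 were used for tables and figures. Coordinates are those of the deposited table (GRCm38). Promoters are from RefSeq, build GRCm38.p6, and those on chromosome 18 were left out. Of the genes tested 8243 matched a promoter by symbol or, where the symbol was not found, by a synonym.

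The comparison, the 56 gene lists, the tests and the alternatives were chosen with earlier results of these data known. Genes are named by a rule: the 15 largest rises and falls among genes called whose libraries do not overlap, every list member called, for other lists the most abundant members and those of smallest p, and the marker genes. The text prints part of them, and further members of a list that were not called were picked after their values were seen. The fit was tested on simulated data, but the outcome is not given here and no result rests on it. As alternatives, pseudocounts of 0.1 and 0.01, no filter, a filter at 5 FPKM, quantile and median-of-ratios scaling, no trend, only the 6 libraries compared, a replicate block, a loess adjustment for GC and length (span 0.5) and the removal of each library were tried. Cuffdiff, pathway software and amino acid measurements were not analysed here. The values of a few genes are not reported here, though the counts include them.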

Additional observations from a re-analysis of the deposited data

How the results depend on the processing

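The 236 genes called (79 higher, 157 lower) numbered 22 (3 and 19) when the fit held the 6 libraries alone, 370 (156 higher) after a correction for GC content and transcript length, and 124 higher under quantile normalization. Leaving out single libraries gave between 31 and 539 genes, between 4 and 191 higher and between 26 and 348 lower, and the extremes of the total came without control replicate 2 and without high dose replicate 1. Fits with only 6 or with 8 libraries have fewer libraries, and beyond that the cause of these shifts was not tested. Same-numbered control and treated libraries had correlations of their deviations of 0.15, 0.033 and 0.098, not all above 0.1, so they share only a number. With replicate number as a block, 106 genes were called (19 higher, 87 lower), and 155 (42 higher) with the block and the GC and length correction together. Under other pseudocounts, median-of-ratios scaling, no trend and other filters the counts stayed within 1.5 times. Depth is approximate here, and genes near 1 FPKM rest on few fragments.

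The replicate SD of a list includes high dose replicate 1, so lists that lay far off in that library did not count as moved. Without it the medians went from 0.076 to -0.040 for mitochondrial ribosomal proteins, -0.095 to -0.23 for the respiratory chain and -0.063 to -0.20 for cytosolic ribosomal proteins. They went from -0.036 to -0.097 for the proteasome and 0.023 to -0.039 for actin and tubulin. List medians moved by more than their replicate SD in these cases. Acute phase genes were at -0.65 with pseudocounts of 0.1 and of 0.01. Without a filter, medians were -0.13 for macrophage markers, -0.038 for serine and one-carbon enzymes, 0.18 for the Txnip list, -0.053 for NF-kB, -0.014 for chemoattractant receptors, -0.076 for acute phase genes, -0.073 for scavenger receptors and lectins, 0 for histones and -0.0010 for odorant receptors, since genes near 0 then enter each list. With a filter at 5 FPKM they were -0.030 for serine and one-carbon enzymes, -0.0015 for autophagy, -0.067 for NF-kB, 0.052 for chemoattractant receptors, -0.20 for complement, -0.36 for acute phase genes, -0.24 for scavenger receptors and lectins, 0.15 for AP-1 genes and 0.011 for Rab GTPases. Quantile normalization gave -0.029 for serine and one-carbon enzymes, -0.37 for acute phase genes and -0.031 for eicosanoid enzymes. The GC and length correction, with or without the block, gave -0.0073 for COPI and COPII, -0.12 for LXR targets, 0.025 for metallothioneins and zinc transporters and -0.033 for eicosanoid enzymes. 

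With 1 library left out, medians ranged from -0.18 to -0.14 for macrophage markers, -0.12 to -0.086 for LXR targets, -0.15 to -0.078 for NF-kB, -0.14 to -0.10 for Toll-like receptors, -0.37 to -0.23 for scavenger receptors and lectins, -0.091 to -0.024 for Pim and STAT genes, 0.017 to 0.095 for MAP kinase phosphatases, -0.049 to 0.012 for p53 targets, -0.017 to 0.024 for mitosis, -0.066 to 0.010 for Rab GTPases, 0.0052 to 0.060 for metallothioneins and zinc transporters, -0.074 to -0.0076 for complement, -0.087 to -0.030 for eicosanoid enzymes, -0.48 to -0.37 for acute phase genes, -0.081 to -0.042 for the unfolded protein response, 0.10 to 0.16 for cholesterol synthesis, -0.071 to -0.0064 for lysosomal genes, -0.076 to 0.13 for chemokine ligands, -0.070 to -0.025 for COPI and COPII, -0.012 to 0.066 for fatty acid synthesis, -0.039 to 0.00076 for autophagy, -0.018 to 0.066 for integrins and -0.089 to -0.026 for iron genes. Among genes not called, the log2 fold change with 1 library left out ranged through 0 for Tlr4 (-0.14 to 0.014, above 0 without control replicate 3 and without high dose replicate 1), Ftl1 (-0.040 to 0.21) and Tnf (-0.0050 to 0.13), both below 0 without high dose replicate 1, and Srebf2 (-0.0012 to 0.15, below 0 without high dose replicate 2).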

Other observations

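Reading the genes called outside the 56 lists pointed to further groups, whose members were collected after the values were seen, so that their counts are a description only. The NADPH oxidase of phagocytes makes superoxide at the membrane of the phagosome. Of 7 of its genes tested 3 were called lower and 0 higher, with a median log2 fold change of -0.24. Cybb, the catalytic subunit gp91phox, had 208, 228 and 214 FPKM across control libraries, 181, 202 and 198 FPKM with 10 µg/ml and 97.7, 148 and 137 FPKM with 100 µg/ml. The libraries at 100 µg/ml lay below control, and its change was -0.78 (SE 0.14, adjusted p = 0.0257). Ncf1, the organizer p47phox, had 68.05, 70.02 and 71.8 FPKM in control cells and 60.2, 59.1 and 57.8 FPKM with 100 µg/ml, and fell by 0.24, and Hvcn1, the proton channel that balances the charge of the oxidase, fell by 0.38 from 13.6, 12.8 and 14.99 FPKM to 10.9, 9.62 and 10.7 FPKM. All 3 lost the call without control replicate 2 (adjusted p = 0.119, 0.146 and 0.0926 for Cybb, Ncf1 and Hvcn1). Without high dose replicate 1 the same 3 were called. Of 18 genes for the breakdown of branched-chain amino acids 3 were called lower and 0 higher, Bcat1, the cytosolic aminotransferase (-0.40 (SE 0.046, adjusted p = 0.006401)), Dbt, of the branched-chain keto acid dehydrogenase (-0.38 (SE 0.051, adjusted p = 0.0106)), and Ivd, which acts on isovaleryl-CoA (-0.43 (SE 0.067, adjusted p = 0.0185)). Bcat1 had 61.9, 62.98 and 66.7 FPKM in control cells and 48.5, 47.3 and 48.2 FPKM with 100 µg/ml. Without control replicate 2 Bcat1 kept the call, and Dbt and Ivd lost it (adjusted p = 0.0561 and 0.0617). Without high dose replicate 1 Bcat1, Dbt and Ivd were called lower, and Bcat2 as well (adjusted p = 0.0283). Dbt (mean 16.5 FPKM over the 9 libraries) overlaps the processed pseudogene Gm4596 (177.5 FPKM) on the other strand, and Hvcn1 overlaps Tctn1, so that reads of the pairs could not be told apart if counting ignored strand.

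Of 8 annexins tested, which bind phospholipid in the presence of calcium, Anxa1 and Anxa3 were called lower, and 0 were higher. Anxa1 had 118, 119.5 and 128 FPKM in control cells and 93.5, 97.2 and 97.4 FPKM with 100 µg/ml, and fell by 0.34, and Anxa3 fell by 0.28. Both lost the call without control replicate 2 (adjusted p = 0.105 and 0.0929). Without high dose replicate 1 Anxa1, Anxa3 and Anxa6 were called lower. Among 3 BET bromodomain genes Brd2, which binds acetylated histones, was called higher, with 154, 158 and 155 FPKM across control libraries, 154, 158 and 164 FPKM with 10 µg/ml and 215, 209.95 and 209 FPKM with 100 µg/ml. All 3 libraries at 100 µg/ml were above the other 6, and the rise was 0.44 (SE 0.043, adjusted p = 0.00351). Of 18 genes for N-glycans and sugar nucleotides 2 were called higher, Gmppb (0.36) and Pgm2 (0.31), and 2 lower, Pmm2 (-0.88) and St6gal1 (-0.93), and Gmppb and Pmm2 overlap other genes. Gmppb was called in none of the 6 refits. Without control replicate 2 Pmm2 alone kept the call. Without high dose replicate 1 Pgm2 and Mgat2 were called higher and Pmm2 and St6gal1 lower. The transcription factor gene Pou2f2, of the Oct family, had 13.96, 13.3 and 16.1 FPKM across control libraries, 15.1, 14.8 and 14.6 FPKM with 10 µg/ml and 7.63, 7.76 and 7.59 FPKM with 100 µg/ml, and fell by 0.83.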
